A study of Mus musculus with 6 samples.

Results

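Retinoids are the active derivatives of vitamin A, and the 9 genes described here encode proteins that carry, make, bind and sense them: Rbp4, Aldh1a1, Aldh1a2, Aldh1a3, Crabp1, Crabp2, Rara, Rarb and Rarg. They were picked by symbol from the 18476 genes of the deposited table, and all 9 were found there and passed the filter on low counts that left 14557 genes. The choice was made knowing that Crabp1 differed between the groups compared here, so its values are a description and not a test. The RNA was that of whole femoral arteries from C57BL/6 mice of wild type, sequenced in bulk. Every artery, treated or control, had received a wire injury 3 days earlier and a solution applied around the outside of the vessel. That solution was saline in 3 libraries and vasostatin-2, a peptide cut from chromogranin A, in the other 3. Age, sex, dose and the number of arteries per library are not stated in the labels. The submitters describe the 3 libraries of a group as biological replicates and place all 6 in 1 batch.

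Retinol travels in blood bound to retinol-binding protein and is oxidised inside cells, by way of retinal, to all-trans retinoic acid. Cellular retinoic acid-binding proteins hold the acid in the cytoplasm and pass it to breakdown enzymes or to the nucleus. There it binds retinoic acid receptors, which sit on DNA as pairs with retinoid X receptors and switch target genes. In arteries retinoids are known for effects on smooth muscle growth and differentiation.

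Crabp1 stood out among the 9 genes, with a level more than 3 times as high with vasostatin-2 as with saline. The retinal dehydrogenase Aldh1a3 was the only other member whose libraries did not overlap between groups, with a level about 1.42 times as high. In counts scaled to library size, 12.8% of all genes tested had no overlap in either direction, and 6.07% had none in the higher direction. Rbp4, Aldh1a1, Aldh1a2, Crabp2 and the 3 receptors had overlapping groups. None of the 9 passed the quasi-likelihood test of edgeR at 0.05 after Benjamini-Hochberg adjustment over all genes, and neither did any of the 14557 genes tested (0 called, 0%). At an unadjusted p of 0.05 or less the same test gave 1040 genes (7.14%), and DESeq2 with the adjustment called 113.

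Libraries held between 19333730 and 20105995 estimated counts, so 3 counts correspond to between 0.149 and 0.155 CPM, counts scaled to library size. The labels name vascular smooth muscle cells, and all 8 smooth muscle markers examined were above 1 TPM in every library. TPM is the level of a transcript corrected for gene length and library size. The 8 markers of adipocytes, the 8 of fibroblasts and the 6 of macrophages were also above 1 TPM in every library. Several libraries stood apart. Saline replicate 2 had the highest summed level of 5 erythroid markers, 43386 TPM against 1149 to 9491 in the others, and of 6 hepatocyte markers, 198 TPM against 5.47 to 12.4. Saline replicate 3 had the highest sum of 8 Schwann cell markers, 597 TPM against 32.0 to 63.0. Vasostatin-2 replicate 3 had the highest sum of 8 skeletal muscle markers, 1258 TPM against 72.4 to 128. In bulk tissue, fewer cells of a type and less RNA per cell cannot be told apart.

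**Figure D1:**
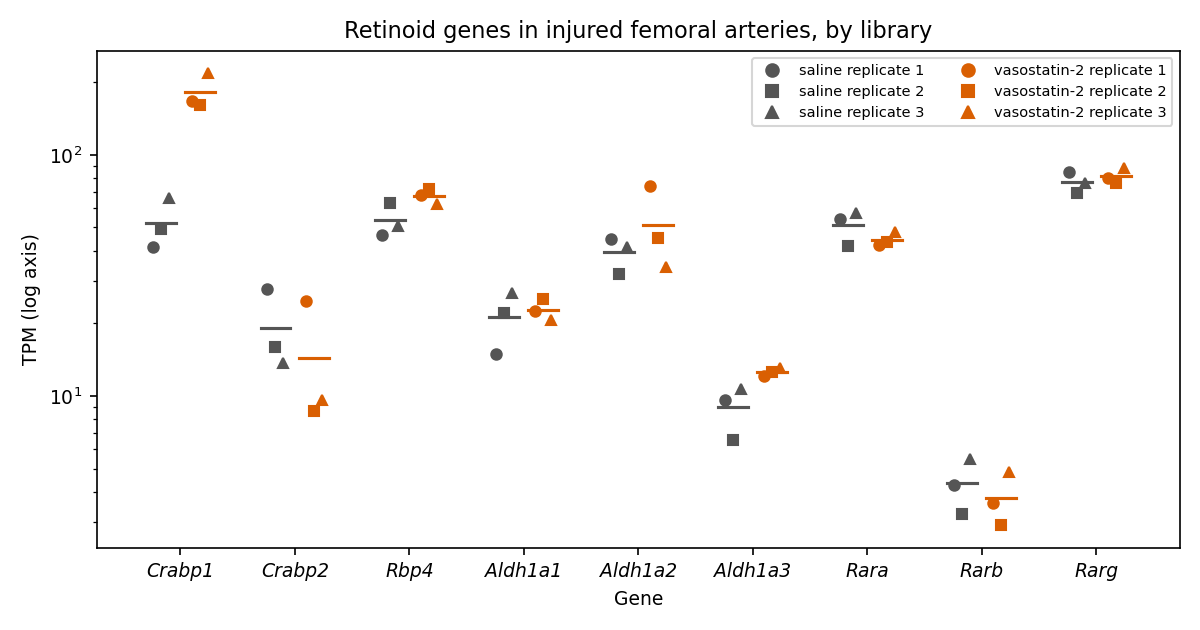
Each point is 1 library, with the level in TPM on a log axis, the 9 genes along the horizontal axis, grey for saline, orange for vasostatin-2 and a bar at the mean of each group. The 3 vasostatin-2 points of Crabp1 lie between 161 and 218 TPM, above the 3 saline points, which lie between 41.5 and 66.4 TPM.

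The carrier and the enzymes come before the binding proteins in the pathway. Rbp4 encodes the carrier that brings retinol from liver to other tissues, and adipocytes make it as well. The gene lies at chr19:38116620-38125321 on the minus strand in the table's build, GRCm38.p6. Its level was 46.6, 63.3 and 50.9 TPM in saline replicates 1 to 3 and 67.9, 72.1 and 62.8 TPM in vasostatin-2 replicates 1 to 3. Saline replicate 2 lay inside the range of the vasostatin-2 libraries and the other saline libraries lay below it. The log2 fold change, computed from counts with vasostatin-2 minus saline, was 0.33 (SE 0.15). It was 0.52 without saline replicate 2 and 0.22 without saline replicate 1.

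Saline replicate 2 also held transcripts of genes best known from liver, where Rbp4 is abundant. Alb, serum albumin, was at 101 TPM there and between 2.15 and 4.30 TPM in the other libraries. Ttr, which encodes the partner protein of Rbp4 in plasma, was at 27.3 TPM there and between 0.41 and 1.40 TPM elsewhere. Of the 6 hepatocyte markers, Fgb and Serpina1a were listed at 0 in at least 1 library. The summed adipocyte markers ranged from 4659 to 9622 TPM with saline and from 6802 to 10455 TPM with vasostatin-2. The order of these sums differed from that of Rbp4: saline replicate 1 was lowest in both, but saline replicate 3 had a sum of 9622 TPM with Rbp4 at 50.9 TPM, and vasostatin-2 replicate 2 had 6802 TPM with Rbp4 at 72.1 TPM. The part of either cell type in the level of Rbp4 was not tested.

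The ALDH1A enzymes oxidise retinal to retinoic acid. Aldh1a2 was the most abundant of them in every library, with 52.6% to 64.6% of the family's summed TPM in saline libraries and 50.4% to 68.3% with vasostatin-2. It lies at chr9:71201952-71296243 on the plus strand. Its level was 44.9, 32.1 and 41.5 TPM in saline replicates 1 to 3 and 74.7, 45.4 and 34.2 TPM with vasostatin-2. The high value belonged to vasostatin-2 replicate 1 alone, and vasostatin-2 replicate 3 lay within the saline range. For Aldh1a2 the log2 fold change was 0.39 (SE 0.28). Leaving out vasostatin-2 replicate 1 gave 0.024. With replicate 3 of that group left out instead it was 0.62. In edgeR's quasi-likelihood test that fit gave an unadjusted p of 0.036 and an adjusted p of 0.978. With all libraries the same test gave an unadjusted p of 0.199. Mesothelium is a known source of this enzyme. The 6 mesothelial markers had sums of 1.44 to 7.02 TPM with saline and 1.53 to 3.49 TPM with vasostatin-2. Upk3b and Upk1b were listed at 0 in at least 1 library. The part of mesothelium in the level of Aldh1a2 was not tested.

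Aldh1a3 had the lowest level of the 3 enzymes. It lies at chr7:66390892-66427477 on the minus strand. It was at 9.66, 6.57 and 10.7 TPM in saline replicates 1 to 3 and at 12.2, 12.6 and 13.1 TPM with vasostatin-2. The vasostatin-2 libraries were close together, at 12.6 ± 0.445 TPM (SD, n = 3), and all lay above the saline libraries, at 8.99 ± 2.16 TPM (SD, n = 3). Aldh1a3 had a log2 fold change of 0.50 (SE 0.15), with an adjusted p of 0.605 in edgeR's test. It ranged from 0.35 without saline replicate 2, the lowest library, to 0.64 without saline replicate 3.

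Aldh1a1, at chr19:20492583-20643463 on the plus strand, differed least between the groups among the enzymes. It was at 15.0, 22.1 and 26.7 TPM in saline replicates 1 to 3 and at 22.5, 25.3 and 20.6 TPM with vasostatin-2. All 3 vasostatin-2 libraries lay within the saline range. Aldh1a1 had a log2 fold change of 0.12 (SE 0.21), which was −0.085 without saline replicate 1. Its counts were not whole in any library. The mouse gene Aldh1a7, a near copy on the same chromosome, shared 3.06% of the 50-base stretches of Aldh1a1 transcripts in GENCODE M21, so the division of reads between them is uncertain. Aldh1a7 itself was at 8.08 ± 3.94 TPM with saline and 11.8 ± 4.57 TPM with vasostatin-2 (SD, n = 3 each). No pair of the 9 members shared a stretch of that length.

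Together the 3 enzymes summed to 69.5, 60.8 and 79.0 TPM in the saline libraries and 109, 83.3 and 67.9 TPM with vasostatin-2. These sums overlapped between groups, and the highest was again vasostatin-2 replicate 1.

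Crabp1 encodes a small cytoplasmic protein that binds retinoic acid and is known from embryonic mesenchyme and from fibroblast populations of skin. The gene lies at chr9:54764748-54773110 on the plus strand. Its upstream sequence is shown because this gene had the largest fold change of the 9. It is the 250 bases before the start site in the RefSeq promoter table of GRCm38.p6 (chr9:54764498-54764747, plus strand), 5′ to 3′, with capitals for each GGGCGG on either strand, the letters of a GC box.
Crabp1: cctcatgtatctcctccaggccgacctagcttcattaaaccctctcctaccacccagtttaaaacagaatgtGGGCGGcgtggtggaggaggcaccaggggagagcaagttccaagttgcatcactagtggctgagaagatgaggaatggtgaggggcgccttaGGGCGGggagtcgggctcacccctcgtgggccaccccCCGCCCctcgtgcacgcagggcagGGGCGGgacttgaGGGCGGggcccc

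This stretch held 5 matches to GGGCGG and none to TATAAA or CCAAT, counting both strands, and 63.6% of its bases were G or C. Of 32851 promoter windows of the same length, 32.7% held GGGCGG at least once, 12.4% held TATAAA and 33.8% held CCAAT. That table held 7 of the 9 members, all but Crabp2 and Aldh1a3, with 13 start sites between them.

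Crabp1 was at 41.5, 49.4 and 66.4 TPM in saline replicates 1 to 3. It was at 167, 161 and 218 TPM in vasostatin-2 replicates 1 to 3. Every vasostatin-2 library was more than 2 times as high as the highest saline library, and replicate 3 was the highest within each group. The log2 fold change of Crabp1 was 1.80 (SE 0.20), a 3.49-fold difference, with an adjusted p of 0.234 in edgeR's test. Leaving out 1 library at a time gave values between 1.65 and 1.99. Ranked by mean TPM among the 14557 genes, Crabp1 was at position 3239 with saline and 863 with vasostatin-2. The authors' deposited table gives a log2 fold change of 1.80 and a q-value of 1.45e-13 for this gene.

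Crabp2 encodes the related protein that delivers retinoic acid to the receptors in the nucleus. It lies at chr3:87948693-87953372 on the plus strand. It was at 27.9, 16.0 and 13.7 TPM in saline replicates 1 to 3 and at 24.7, 8.66 and 9.67 TPM with vasostatin-2. Replicate 1 was the highest of each group, and vasostatin-2 replicate 1 lay within the saline range. Crabp2 had a log2 fold change of −0.41 (SE 0.46), which was −1.05 without vasostatin-2 replicate 1 and −0.072 without saline replicate 1.

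The balance of the binding proteins differed from library to library. Crabp1 made up 59.8%, 75.6% and 82.9% of their summed TPM in saline replicates 1 to 3 and 87.1%, 94.9% and 95.8% with vasostatin-2. The groups did not overlap in this share, which rests on the same counts as the fold change of Crabp1. The sum of both genes was 71.6 ± 7.62 TPM with saline and 196 ± 29.1 TPM with vasostatin-2 (SD, n = 3 each).

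**Figure D2:**
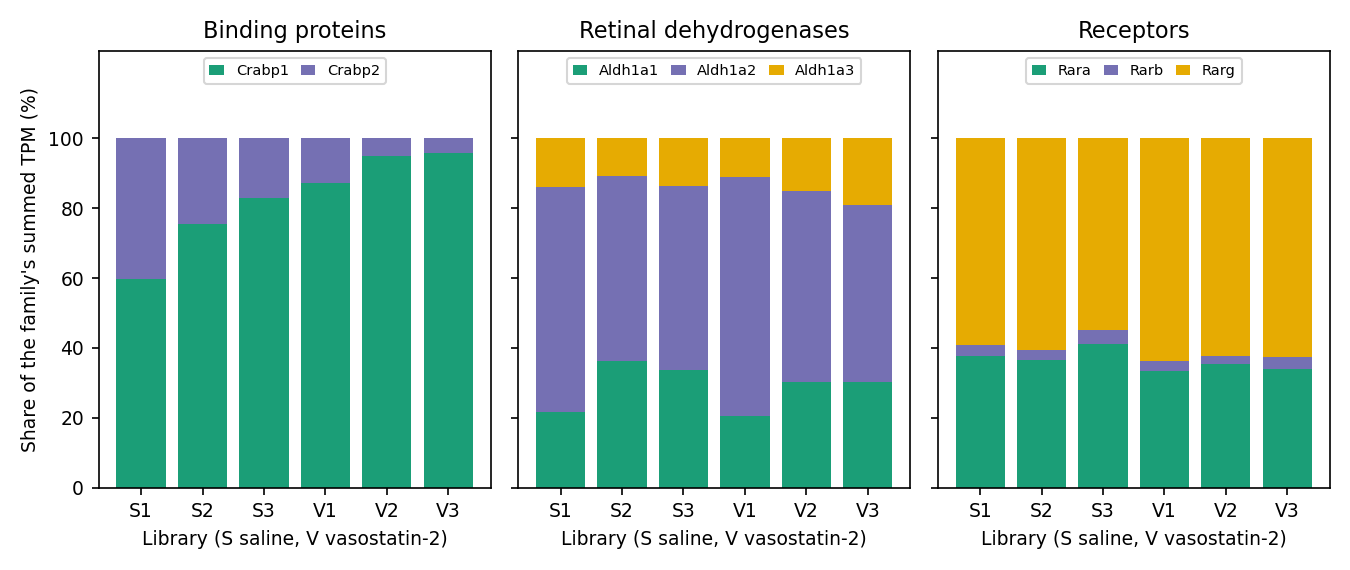
Stacked bars give each gene's share of its family's summed TPM, in percent, for the 3 saline libraries (S1 to S3) and the 3 vasostatin-2 libraries (V1 to V3). Crabp1 takes 59.8% to 82.9% of the binding proteins in saline libraries and 87.1% to 95.8% with vasostatin-2, while Aldh1a2 and Rarg are the largest part of their families in every library.

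Markers of several other cell types leaned one way, although none passed the adjusted test, and 49.8% of all genes tested were higher with vasostatin-2. Of 8 fibroblast markers, 6 were higher and 3 had an unadjusted p of 0.05 or less in that direction, where 3.29% of all genes did. These were Pdgfra, a growth factor receptor of mesenchymal cells, and the matrix proteoglycans Dcn and Lum, with log2 fold changes of 0.56, 0.45 and 0.71. The 2 lower were Col1a1, which had the highest level of the list in every library, and Dpp4, with −0.16 and −0.058. The fibroblast sum overlapped between groups, at 5088 to 8965 TPM with saline and 6883 to 7803 TPM with vasostatin-2. Of 6 macrophage markers, 5 were higher and 3 passed the unadjusted threshold, with sums of 4391 to 5195 TPM against 5089 to 6054 TPM. All 8 smooth muscle markers were higher and none passed, with sums of 781 to 1787 TPM against 841 to 2101 TPM. All 8 skeletal muscle markers were higher and none passed, with the highest sum in vasostatin-2 replicate 3. Of 8 adipocyte markers, 6 were higher and 1 of these, Lep, passed the unadjusted threshold. In the other direction, all tested markers of neutrophils (6), red cells (5), Schwann cells (6), hepatocytes (3) and mesothelium (2) were lower. The unadjusted threshold was passed by 2 neutrophil markers, 1 red cell marker (Alas2) and 1 hepatocyte marker (Alb). Of all genes, 3.85% passed it in that direction. The Schwann cell sum was highest in saline replicate 3, and the red cell and hepatocyte sums in saline replicate 2. The mesothelial genes Wt1 and Lrrn4 differed little, with log2 fold changes of −0.13 and −0.037. The 6 endothelial markers were 3 higher and 3 lower, and 1 of the lower, Cdh5, passed the unadjusted threshold. Epidermal and hair follicle markers summed to 7.56 to 13.5 TPM with saline and 6.37 to 9.87 TPM with vasostatin-2, and Krt1 and Krt17 were listed at 0 in at least 1 library. Nerve transcripts were high in saline replicate 3 only, and muscle transcripts in vasostatin-2 replicate 3 only. With these libraries left out, the log2 fold change of Crabp1 was 1.84. The part of any of the cell types above in the difference of Crabp1 was not tested.

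Over the 6 libraries, the gene whose log2 CPM was most like that of Crabp1 among 13763 genes at 1 CPM or more was Agtr2, the angiotensin II type 2 receptor (Pearson r = 0.992). Sun1, a nuclear envelope protein, followed with r = 0.990, then Adamtsl4, a secreted matrix protein, with 0.986, Txnrd2, a mitochondrial thioredoxin reductase, with 0.986, and Dlk1, a transmembrane protein of progenitor cells, with 0.984. These genes share the libraries and the group difference with Crabp1. Their own log2 fold changes were 2.15, 0.18, 0.33, 0.24 and 2.70 in that order, so genes alike in pattern differed in the size of their change. The same search gave a gene with r between 0.9828 and 0.9991 for each of the other members, such as Tubb3 for Rara (r = 0.997) and Cpne8 for Crabp2 (r = 0.996). No other member was among the 5 genes most like Crabp1.

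The receptors are ligand-dependent transcription factors. Rarg had the highest level of the 3 in every library and lies at chr15:102234938-102257522 on the minus strand. It was at 84.7, 69.5 and 76.6 TPM in saline replicates 1 to 3 and at 80.3, 76.4 and 88.2 TPM with vasostatin-2. Its libraries were close together in both groups and overlapped, with a log2 fold change of 0.10 (SE 0.082). That value was 0.044 without vasostatin-2 replicate 3 and 0.16 without saline replicate 1.

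Rara lies at chr11:98927800-98974942 on the plus strand. It was at 54.1, 41.8 and 57.3 TPM in saline replicates 1 to 3 and at 42.2, 43.5 and 48.1 TPM with vasostatin-2. Saline replicate 2 lay just below the vasostatin-2 libraries and the other saline libraries above them. Rara had a log2 fold change of −0.19 (SE 0.11), which was −0.29 without saline replicate 2. Its counts were not whole in any library, and how its reads were divided is not stated.

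Rarb is itself a classic retinoic acid target, through a response element in its promoter. That element is shown because it is the 1 member promoter in which the search found a repeat of the receptor's binding letters. Each copy could read AGGTCA, the usual form of the site, or alternatively AGTTCA, which differs inside it, or otherwise GGGTCA, which differs at its start, or finally GGTTCA, which differs at both places. Copies had to lie in the same direction with 1, 2 or 5 bases between, and both strands were searched. Capitals mark the whole match in the 250 bases before the start site (RefSeq promoter table, GRCm38.p6, chr14:16575477-16575726, minus strand), 5′ to 3′.
Rarb: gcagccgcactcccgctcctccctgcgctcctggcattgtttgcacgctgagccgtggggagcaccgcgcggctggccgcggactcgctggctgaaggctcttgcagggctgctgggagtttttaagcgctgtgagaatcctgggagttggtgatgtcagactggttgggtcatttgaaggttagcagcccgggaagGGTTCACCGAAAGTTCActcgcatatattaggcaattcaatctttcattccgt

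The match spans 17 bases, with 5 bases between the repeated letters, and begins at position −53 from the start site. Such a repeat was present in 29 of the 32851 promoter windows (0.0883%). The forms with 1 and 2 bases between were in 0.164% and 0.174% of windows and in none of the windows of the 7 members searched. Crabp2 and Aldh1a3 had no window to search. A match of letters is a description and does not show that a receptor was bound in these arteries.

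The level of Rarb was the lowest of the 9 in every library. It was at 4.28, 3.24 and 5.49 TPM in saline replicates 1 to 3 and at 3.61, 2.91 and 4.84 TPM with vasostatin-2. The groups overlapped over most of their range, and replicate 3 was the highest and replicate 2 the lowest in each. The log2 fold change of Rarb was −0.19 (SE 0.24), and 0.0042 without saline replicate 3. The deposited table places Rarb at chr14:16430839-17082331 on the plus strand, whereas GENCODE M21, of the same build, has it on the minus strand. GENCODE M21 ends Rarb at 16819156, short of the deposited end. Exons of 2 other genes, Top2b and Gm48162, overlap it there on the opposite strand. In the deposited coordinates Top2b ends at 16430787, before the start of Rarb. Whether counting used the strand is not stated, so the counts of Rarb are uncertain. The other 8 members overlapped no exon of another gene in GENCODE M21.

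Rarg made up 54.9% to 60.7% of the summed receptor TPM in saline libraries and 62.2% to 63.7% with vasostatin-2, with no overlap. Rara made up 36.5% to 41.1% and 33.5% to 35.4%. In its own level each of these genes overlapped between groups. Such shares were not computed over other gene families, so how often they separate is not known. The ratio of Rarg to Rara was 1.52 ± 0.167 with saline and 1.83 ± 0.0731 with vasostatin-2 (SD, n = 3 each). The sum of the receptors was 132 ± 15.5 TPM with saline and 130.0 ± 9.76 TPM with vasostatin-2 and overlapped.

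The order of levels differed at the top. In saline libraries it ran Rarg, Rbp4, Crabp1, Rara, Aldh1a2, Aldh1a1, Crabp2, Aldh1a3 and Rarb, by mean TPM. Libraries of Rbp4, Crabp1, Rara and Aldh1a2 overlapped with those of their neighbours in that order, as did those of Aldh1a1 and Crabp2. With vasostatin-2 Crabp1 was at the top, at 182 ± 31.2 TPM, above Rarg at 81.6 ± 6.01 TPM and Rbp4 at 67.6 ± 4.67 TPM (SD, n = 3 each), and the libraries of these 3 genes did not overlap. Aldh1a2 came next and overlapped with Rbp4 above it and Rara below it. Aldh1a1, Crabp2 and Aldh1a3 followed, each overlapping with its neighbour, and Rarb was again last.

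**Figure D3:**
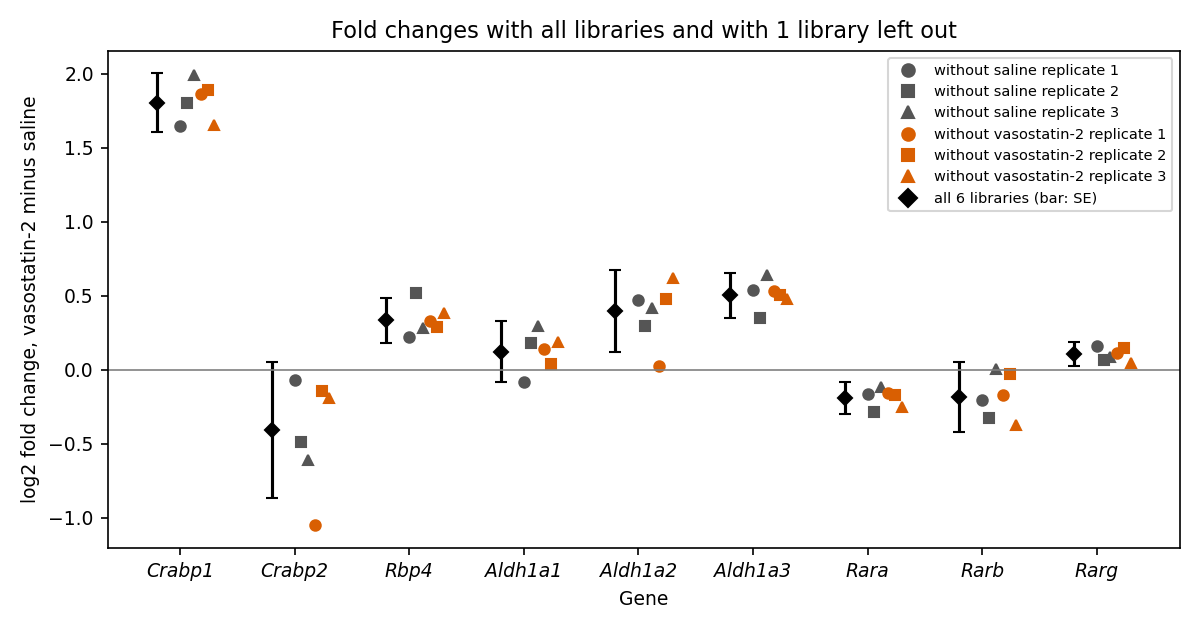
Black diamonds give the log2 fold change (vasostatin-2 minus saline) of each gene from edgeR with its standard error, and the grey and orange symbols give the value with 1 library left out. Crabp1 stays between 1.65 and 1.99, Aldh1a2 drops to 0.024 without vasostatin-2 replicate 1, and Crabp2 spans −1.05 to −0.072.

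Of the 9 members, 2 had an unadjusted p of 0.05 or less, Crabp1 and Aldh1a3, both in the higher direction, against 3.29% of all genes tested in that direction. The same 2 had no overlap between groups in CPM, in the higher direction, against 6.07% of all genes. By sign alone, 6 members were above 0 and 3 below, where 49.8% of all genes were above 0. The median log2 fold change of the members was 0.12, and that of all genes −0.00068. The members were chosen with this comparison known, so these counts are a description only.

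The rest of the pathway was read from 73 further genes, of which 72 were in the table and 59 passed the low-count filter. None passed the adjusted test. At an unadjusted p of 0.05 or less 0 were higher and 2 lower, where 3.29% and 3.85% of all genes were, and the median log2 fold change was 0.0073. Those 2 were Rdh12, a retinal reductase, and Cd38, an enzyme of NAD breakdown whose gene retinoic acid induces in myeloid cells. In CPM, groups did not overlap in 2 genes in the higher direction (Ncoa3 and Hoxa2) and in 4 in the lower (Rdh12, Cd38, Med1 and Rarres1), against 6.07% and 6.72% of all genes. In TPM those of Ncoa3 did overlap. Ncoa3, Hoxa2, Med1 and Rarres1 are named because of these values.

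Rdh12 was at 3.57, 4.73 and 4.55 TPM in saline replicates 1 to 3 and at 2.65, 2.42 and 2.58 TPM with vasostatin-2, a log2 fold change of −0.73 (SE 0.21). Every vasostatin-2 library was below every saline library. Among the 16 oxidoreductases, 12 were tested, with 7 higher and 5 lower and a median of 0.12. Dhrs3, which turns retinal back into retinol and is induced by retinoic acid, had the highest level of this list and is named after its values were seen. It was at 182, 242 and 190 TPM in the saline libraries and 229, 273 and 279 TPM with vasostatin-2. Saline replicate 2 lay within the vasostatin-2 range, and the log2 fold change was 0.35 (SE 0.15).

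Of 13 genes for retinol transport and storage 9 were tested, with 5 higher, 4 lower, none past the unadjusted threshold and a median of 0.011. Fabp5, a fatty acid-binding protein that can also carry retinoic acid, was at 292, 682 and 246 TPM in saline replicates 1 to 3 and at 350, 386 and 364 TPM with vasostatin-2, a log2 fold change of −0.17 (SE 0.40). Saline replicate 2 lay above every vasostatin-2 library and the other saline libraries lay below them. The scavenger receptor Scarb1, which takes up carotenoids, had a log2 fold change of 0.060 (SE 0.19). Stra6, the cell-surface receptor for Rbp4, is named after its values were seen. It was at 6.13 TPM in saline replicate 3 and between 0.58 and 1.97 TPM in the others. Saline replicate 3 also had the highest sums of Schwann cell, mesothelial and endothelial markers among the libraries. The part of any cell type in the level of Stra6 was not tested.

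The CYP26 enzymes break retinoic acid down. Cyp26b1 was at 4.75, 5.31 and 3.82 TPM with saline and 5.95, 3.33 and 3.61 TPM with vasostatin-2, and the groups overlapped (log2 fold change −0.14, SE 0.26). Cyp26a1 and Cyp26c1 were too low for the test. Cyp26a1 had 19, 7 and 8 counts in saline replicates 1 to 3 and 5, 0 and 5 in the vasostatin-2 replicates. The 0 among 19895152 counts allows up to 0.151 CPM. This limit covers counting error only.

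All 3 retinoid X receptors had groups that overlapped. Rxra had a log2 fold change of −0.036 (SE 0.10) and Rxrb of −0.016 (SE 0.071), and the median of the 3 genes was −0.016. Of 13 receptor coregulators in the table all 13 were tested, with 7 higher, 6 lower and log2 fold changes between −0.15 and 0.19. The deacetylase Hdac3, at 66.1 ± 3.20 TPM with saline (SD, n = 3), had a log2 fold change of 0.045 (SE 0.067).

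Of 30 genes known as retinoic acid targets in other settings 25 were tested, with 12 higher and 13 lower and a median of −0.025. Cd38 was at 27.9, 49.5 and 39.8 TPM in saline replicates 1 to 3 and at 26.4, 21.3 and 26.7 TPM with vasostatin-2. Every vasostatin-2 library lay below the lowest saline library, replicate 2 by the most, with a log2 fold change of −0.66 (SE 0.23). All 6 neutrophil markers were also lower, 2 of them at an unadjusted p of 0.05 or less where 3.85% of all genes were, and none passed the adjusted test. Their sums were 525 to 895 TPM with saline and 200 to 585 TPM with vasostatin-2. In CPM each marker's groups overlapped, but in TPM every vasostatin-2 library of Cxcr2 lay below every saline library. Of 6 macrophage markers, 5 were higher, 3 of them at an unadjusted p of 0.05 or less where 3.29% of all genes were. The part of either cell type in the level of Cd38 was not tested.

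**Figure D4:**
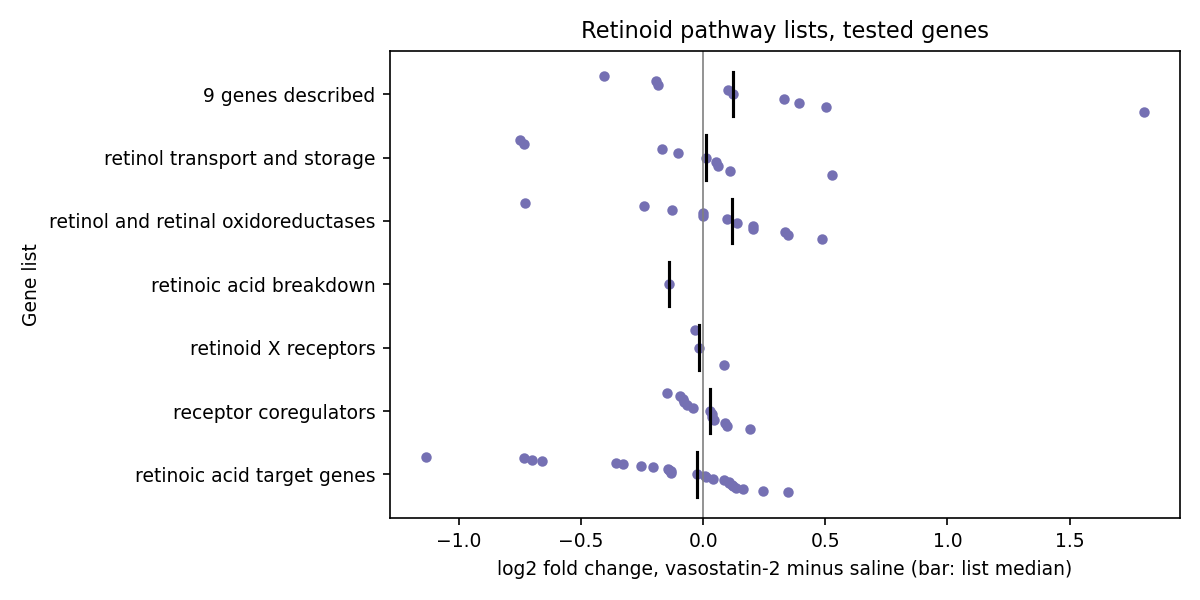
Each point is the log2 fold change (vasostatin-2 minus saline) of 1 tested gene, by list, with a bar at the list's median. Crabp1, at 1.80, is the point farthest to the right, and the medians of the 7 lists lie between −0.14 and 0.12.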

How the data were processed

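Reads were processed against GRCm38.p6 with HISAT2 2.1.0 and DESeq2 1.26.0 among the tools, per the submitters' processing notes, and the counting tool is not stated. The authors deposited 1 table with estimated counts (65.6% of them whole), FPKM and TPM values per library, group means, and the log2 fold change, p-value and q-value of their own comparison, with the sign positive where vasostatin-2 is higher. FPKM values were not used.

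Estimated counts were rounded, filtered with filterByExpr, scaled by TMM (factors 0.985 to 1.01) and tested in edgeR 4.0.16 (R 4.3.3), quasi-likelihood with robust dispersions and treatment as the only term, with p-values adjusted over all 14557 genes. The biological coefficient of variation was 16.1%. The test was checked on simulated data with the same dispersion for every gene. Libraries that stand apart, as some do here, are not covered by that check. log2 CPM values used a prior count of 2. Deposited TPM gave levels. Alternatives were other scalings, filters and dispersions, DESeq2 1.42.0 (584 adjusted p-values undefined), limma 3.58.1, log2(TPM + 1) and log2(TPM + 0.1), a replicate block, and leaving out libraries. Python 3.11.15 with pandas 2.3.3 and matplotlib 3.10.9 read tables and drew figures.

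Members and lists were chosen with earlier results of these data known. Named were the 9 members, in each further list the genes with an unadjusted p of 0.05 or less or else the 2 of highest TPM, the 5 genes most like Crabp1 and the 1 most like each other member. Some items the rule covers are not reported. Genes named outside this rule are said to be so, apart from markers, Aldh1a7, Top2b and Gm48162. Chi-square per degree of freedom between 2 replicates of a group was 15.6 or more, so none was counted as a duplicate.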

Additional observations from a re-analysis of the deposited data

How the results depend on the processing

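Of 187 values recomputed under 17 alternatives, 180 kept their direction and side of the threshold, or for counts stayed within 1.5 times. The number of genes past the adjusted threshold was 113 with DESeq2, and between 0 and 2 when 1 library was left out, with 2 without saline replicate 2. The number of members at an unadjusted p of 0.05 or less was 4 with limma-voom and quality weights (Crabp1, Aldh1a3, Rbp4 and Rara), and between 2 and 4 when 1 library was left out, with the same 4 genes without saline replicate 2. Crabp1 had a log2 fold change of 1.80 with DESeq2, where it passed (adjusted p = 1.13e-13). Its adjusted p ranged up to 0.806, without vasostatin-2 replicate 3. With 1 library left out, the log2 fold change of Aldh1a1 ranged from −0.085 (without saline replicate 1) to 0.30 (without saline replicate 3), and that of Rarb from −0.37 (without vasostatin-2 replicate 3) to 0.0042 (without saline replicate 3). Over all 17 alternatives Aldh1a1 reached 0.36 (without both replicates 3) and Rarb −0.40 (limma-voom with quality weights). The cause of these changes was not tested.

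No sign that replicate numbers pair the samples was seen in correlations between libraries, but so few libraries cannot exclude it. Correlations of deviations from the group means were −0.119, 0.0251 and 0.0273 for numbers 1 to 3, and 0 of 6 libraries correlated best with their own number. With the replicate block 0 genes passed, 3 members had an unadjusted p of 0.05 or less (Crabp1, Aldh1a3 and Rbp4) and the log2 fold change of Crabp1 was 1.82. For Crabp2 edgeR's test gave an unadjusted p of 0.060 with the block and 0.41 without it. Each member had 73 counts or more in each library.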
